A study of Mus musculus with 2 samples.

Results

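The miR-297, miR-466, miR-467 and miR-669 families were followed in sorted Müller glia (MG), glial cells that span the retina, with and without a deletion of Dicer1. They were taken as every unstarred mouse miRNA probe of the panel named miR-297, miR-466, miR-467 or miR-669, with any letter or arm, which gave 33 of the 566 mouse miRNA probes. The rule uses names only, but the families were chosen on the raw counts and detection calls of these same libraries, with the value of miR-466g known, so their values are a description. Of the 33 probes, 29 read 1 miRNA and 4 are joint probes that read several. Starred probes of the same numbers were not among the 566 (0 of 566).

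Most of these miRNAs come from a tandem repeat of hairpins inside Sfmbt2, a Polycomb-group gene on chromosome 2 that is imprinted in the mouse and known for its role in the placenta. The hairpins are rich in UG and AC repeats and are known from rodents. A primary transcript is cut by Drosha into hairpins, and Dicer cuts each hairpin into mature miRNAs of which Argonaute keeps mostly a single strand. Bases 2 to 8 of the mature miRNA, the seed, set most of the pairing with target mRNAs.

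miRNAs were counted with NanoString nCounter, in which mature miRNAs are ligated to tags, hybridized to barcoded probes and counted without amplification. The Dicer-CKO_MG library was made from 26 pooled retinas of adult Rlbp1-CreER:tdTomato:Dicerf/f mice. The wild-type library was made from pooled retinas of adult Rlbp1-CreER:tdTomato mice, 40 by its description and 26 by its extraction protocol. Mice of both groups carried the CreER, driven by the Rlbp1 promoter of MG, and the tdTomato reporter, and both received tamoxifen (75 mg/kg from postnatal day 11 to 14). Only tdTomato+ cells from FACS were used. Dicer1 mRNA itself was not analysed here. The study's text notes that Rlbp1-CreER is also active in some cells of the retinal pigment epithelium and that Dicer1 was deleted in only part of the MG. With 1 library per group the differences have no replicate check, and no p-value is given. Fewer cells of a type and less RNA per cell cannot be told apart in these pools.

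The Dicer-CKO_MG library held 139812 barcodes over all probes and the wild-type library 769736. The 5 miRNAs listed as MG markers (let-7c, miR-9, miR-125b-5p, miR-204 and miR-181a) gave 1898 to 6906 raw counts in Dicer-CKO_MG, against 22705 to 247414 in wild-type. Of the 13 listed miRNAs of neurons, photoreceptors, immune cells, blood vessels and erythroid cells, 9 were detected in Dicer-CKO_MG and 10 in wild-type. Their summed raw count was 5197 in Dicer-CKO_MG, against 3094 in wild-type. Their summed normalized count was 13513 against 1855, and that of the 5 MG markers 52698 against 338250. The 2 erythroid miRNAs were detected in neither library. A normalized count is the raw count minus the mean of the 8 negative controls, multiplied by a factor from the positive controls and the housekeeping mRNAs. That factor was 2.74 in Dicer-CKO_MG, against 0.716 in wild-type.

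The gene table of RefSeq (assembly GRCm38.p6) lists 81 hairpin genes with these 4 numbers, 71 of them inside Sfmbt2 and 10 elsewhere. Of the 71 inside, 5 are Mir297, 23 Mir466, 14 Mir467 and 29 Mir669 genes. With 1 other miRNA gene they make up the 72 inside Sfmbt2, which span 51.6 kb with a median of 296 bp between the starts of neighbours. By the names of these genes, 25 of the 33 probes matched hairpins inside Sfmbt2 only, 3 matched hairpins both inside and elsewhere, and the probes for miR-466i, miR-466j, miR-466k, miR-467f and miR-467g matched hairpins outside Sfmbt2 only. The label of an Sfmbt2 cluster thus held for 28 of the 33 probes in full or in part.

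Mature sequences from RefSeq were matched by name for 5 of the 33 probes (15.2%), all 5 of them with a gene outside Sfmbt2. They are shown because they let a reader see the repeats that these families are made of, with the seed in capitals, and because miR-467f is the 1 detected miRNA among them.
miR-467f: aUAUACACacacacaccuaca
miR-467g: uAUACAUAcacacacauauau
miR-466j: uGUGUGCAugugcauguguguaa
miR-466k: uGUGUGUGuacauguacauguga
miR-467h: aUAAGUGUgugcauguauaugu
In GRCm38.p6, miR-467f lies at chr11:69635419-69635439 on the minus strand, miR-467g at chr5:34732872-34732892 on the minus strand and miR-466j at chr10:60960802-60960824 on the plus strand. miR-466k lies at chr3:85467396-85467418 and miR-467h at chr9:115381898-115381919, both on the plus strand. The 5 sequences had 5 different seeds, so members of 1 number need not share a seed. miR-467f and miR-467g held AC steps and no UG steps (13 and 10 dinucleotides AC or CA, and 0 of UG or GU). miR-466j, miR-466k and miR-467h held more UG steps (14, 13 and 10 dinucleotides UG or GU) than AC steps (2, 4 and 1 dinucleotides AC or CA). Purines and pyrimidines alternated over 16 bases of miR-467f, 21 of miR-467g, 22 of miR-466j, 22 of miR-466k and 18 of miR-467h. With sequences for 15.2% of the probes, under the 80% that such a check needs, no relation of sequence to level could be examined. Probes for such similar repeats can read each other in part, so which member gave a count is uncertain.

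These families were at or near background in MG of both genotypes. To be detected a probe had to exceed its library's mean of the negative controls by more than 2 SD, which took a raw count above 53.2 in Dicer-CKO_MG, against 71.7 in wild-type. In Dicer-CKO_MG 1 of the 33 probes was detected (3.03%), against 13.6% of all 566 mouse probes. In wild-type 5 of the 33 were detected (15.2%), against 30.2% of all mouse probes. The share detected was thus below that of the panel in either library, while 28 of the 33 were detected in neither, against 392 of the 566.

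**Figure D1:**
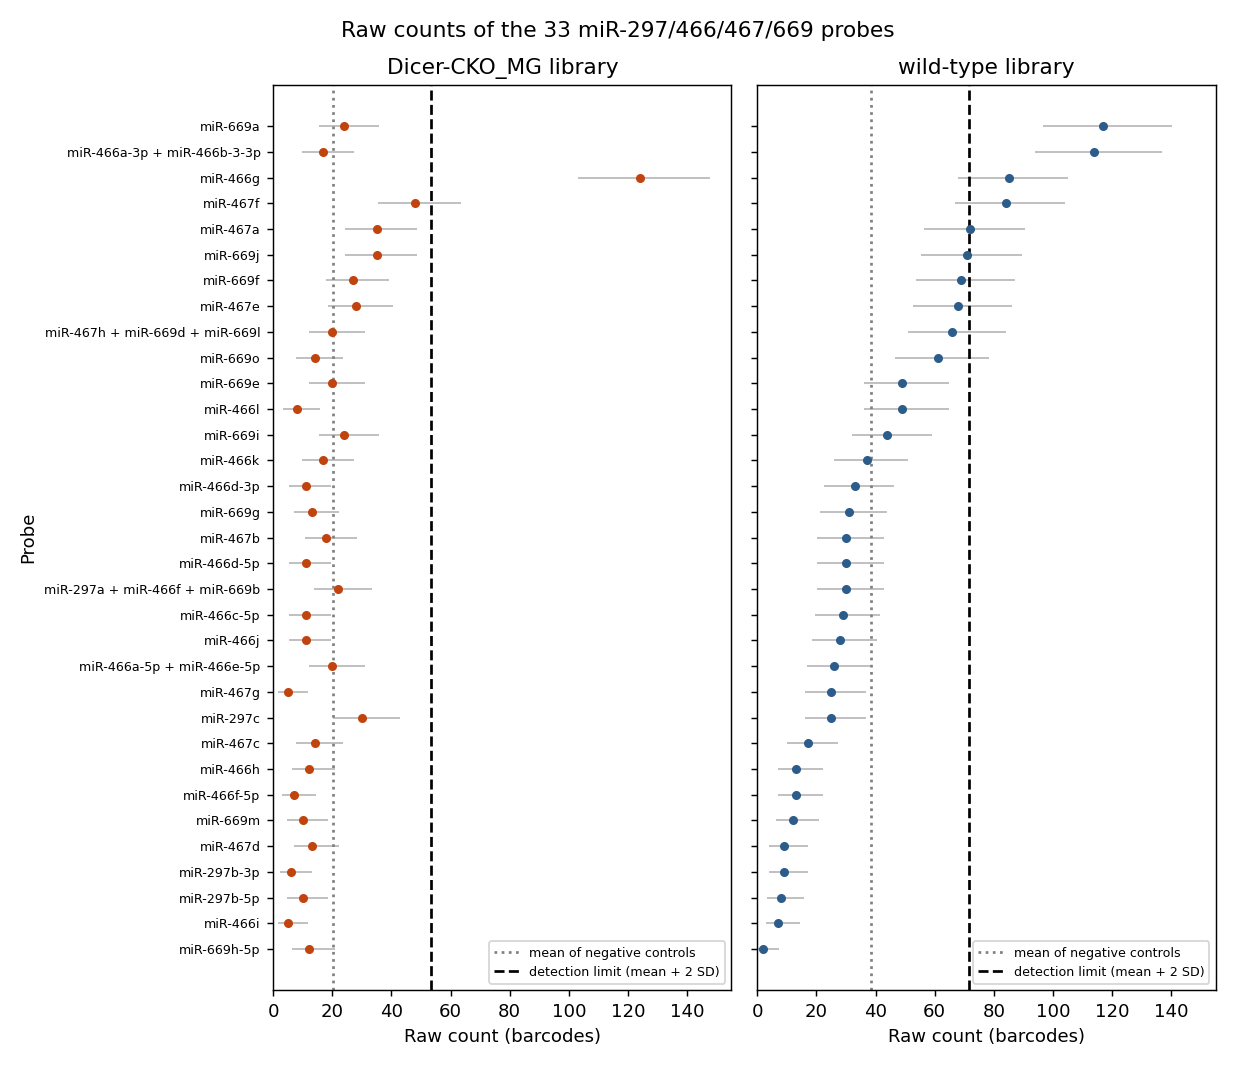
Raw counts of the 33 probes (points, barcodes, in the order of the wild-type counts) in the Dicer-CKO_MG library on the left and the wild-type library on the right, with exact 95% Poisson intervals (bars, counting error only), the mean of the negative controls (dotted) and the detection limit (dashed). In Dicer-CKO_MG only miR-466g, with 124, lies right of the limit of 53.2, and in wild-type 5 probes lie right of 71.7, with a further group just left of it.

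Over all 33 probes the raw count averaged 20.7 ± 21.0 (SD over probes) in Dicer-CKO_MG, against 41.3 ± 30.5 in wild-type. The negative controls averaged 20.4 ± 16.4 in Dicer-CKO_MG, against 38.6 ± 16.5 in wild-type (SD, 8 probes each). The probes thus stood above the negative controls by 0.292 counts on average in Dicer-CKO_MG, against 2.68 in wild-type, less than the standard error of the background mean, 5.81 and 5.84. Without miR-466g the Dicer-CKO_MG mean was below background, by -2.94 counts. Summed over the probes and normalized, the excess was 26.4 in Dicer-CKO_MG (SE 525 from the background mean alone), against 63.3 in wild-type (SE 138). No ratio of the families as a whole can be read from sums that are this small beside their error.

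The 33 viral miRNA probes of the panel gave a second view of background, since mouse MG have no such miRNAs unless infected. The 33 family probes had a median raw count of 14.0 in Dicer-CKO_MG, against 30.0 in wild-type. The viral probes had medians of 18.0 in Dicer-CKO_MG, against 42.0 in wild-type. The medians of the families were thus below those of the viral probes in both libraries. Across the 33 family probes the raw counts of the libraries had a Spearman rho of 0.703, and across the 33 viral probes 0.710. The points of each share the same probes, so this order is that of probes and not of samples. Family probes above the highest viral probe numbered 4 in Dicer-CKO_MG (above 32 counts), against 2 in wild-type (above 91 counts). The share of all mouse probes above these counts is not given here, so the families cannot be set beside the panel by them.

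**Figure D2:**
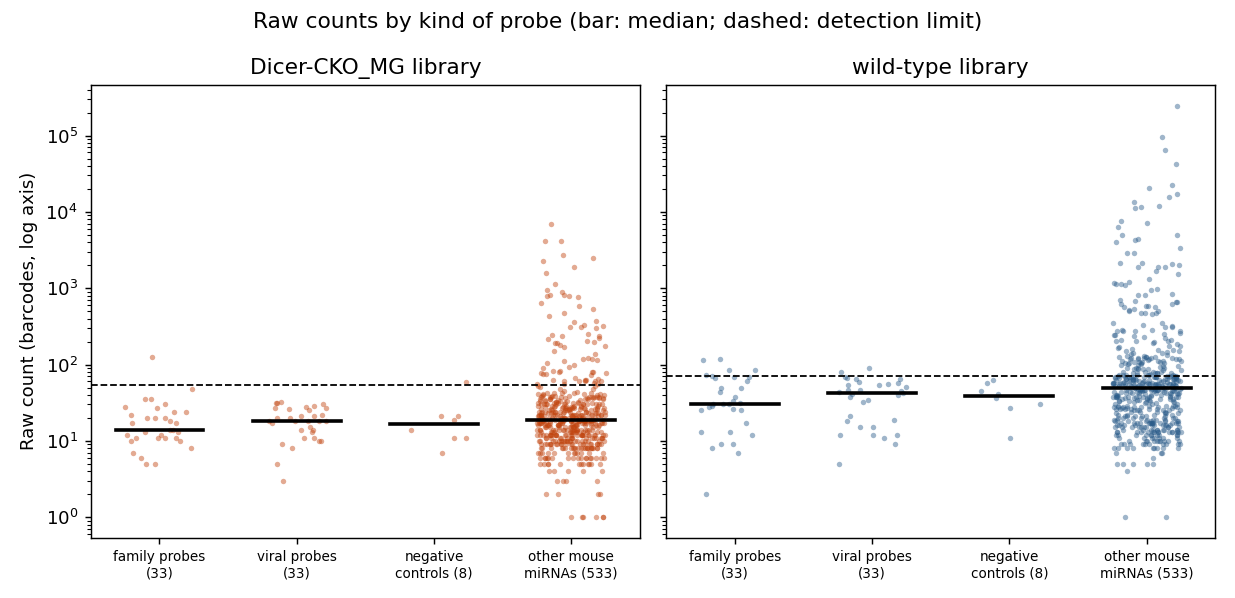
Raw counts (barcodes, log axis) of the 33 family probes, the 33 viral probes, the 8 negative controls and the other 533 mouse miRNA probes in the Dicer-CKO_MG library on the left and the wild-type library on the right, each point being 1 probe, the bar the median and the dashed line the detection limit. The family probes lie over the range of the viral probes and negative controls, with 1 family point above the limit in Dicer-CKO_MG and 5 such points in wild-type, while other mouse miRNAs reach 6906 and 247414.

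Among the detected members, miR-466g was the only one above the limit in both libraries. It gave 124 raw counts in Dicer-CKO_MG (exact 95% Poisson interval 103 to 148), against 85 in wild-type (67.9 to 105). The Dicer-CKO_MG count lay 6.31 SD above the mean of the negative controls and the wild-type count 2.81 SD above it. The interval cleared the detection limit in Dicer-CKO_MG but reached below it in wild-type, so the level of miR-466g in wild-type is the less certain of the pair. The wild-type count was also below 85.4, the mean plus 2 SD of the viral probes, and with that limit miR-466g was not detected in wild-type and its fold below is only a bound. Among the 566 mouse probes miR-466g ranked 44 by raw count in Dicer-CKO_MG, against 150 in wild-type, and among the 33 it ranked 1 and 3. Its only hairpin gene lies 48.0 kb from the first hairpin of the 51.6 kb cluster.

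After normalization miR-466g had a count of 283.9 in Dicer-CKO_MG, against 33.2 in wild-type, and so was 8.55-fold higher in Dicer-CKO_MG (95% counting interval 6.44 to 11.4), the 1 member called higher. The interval is that of the ratio of raw counts, moved to the normalized scale. It leaves out the background subtraction and is too narrow for counts this near background. Calls needed a 2-fold difference with an interval that excluded equality. Over all mouse probes 21 of 566 were called higher (3.71%) and 52 lower (9.19%). The share of members called higher, 1 of 33 (3.03%), was near this background, and no member was called lower (0 of 33). Among the 74 mouse probes detected in both libraries, of which miR-466g is 1, 24.3% were called higher and 55.4% lower. The wild-type value rests on 46.4 counts above background where the negative controls have a SD of 16.5. With the background set to the extremes of the negative controls, in opposite directions in the libraries, the fold was 4.54 to 17.5. These extremes were tried with the housekeeping scaling only. Scaled to the positive controls only, the fold was 1.58, under the size of a call, and 2.23 in raw counts above background. An unchanged normalized level would have given 32.5 raw counts in Dicer-CKO_MG, and 86.1 on the scale of the positive controls. The count of 124 differed from these by 5.57 and 2.30 SD of the negative controls.

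**Figure D3:**
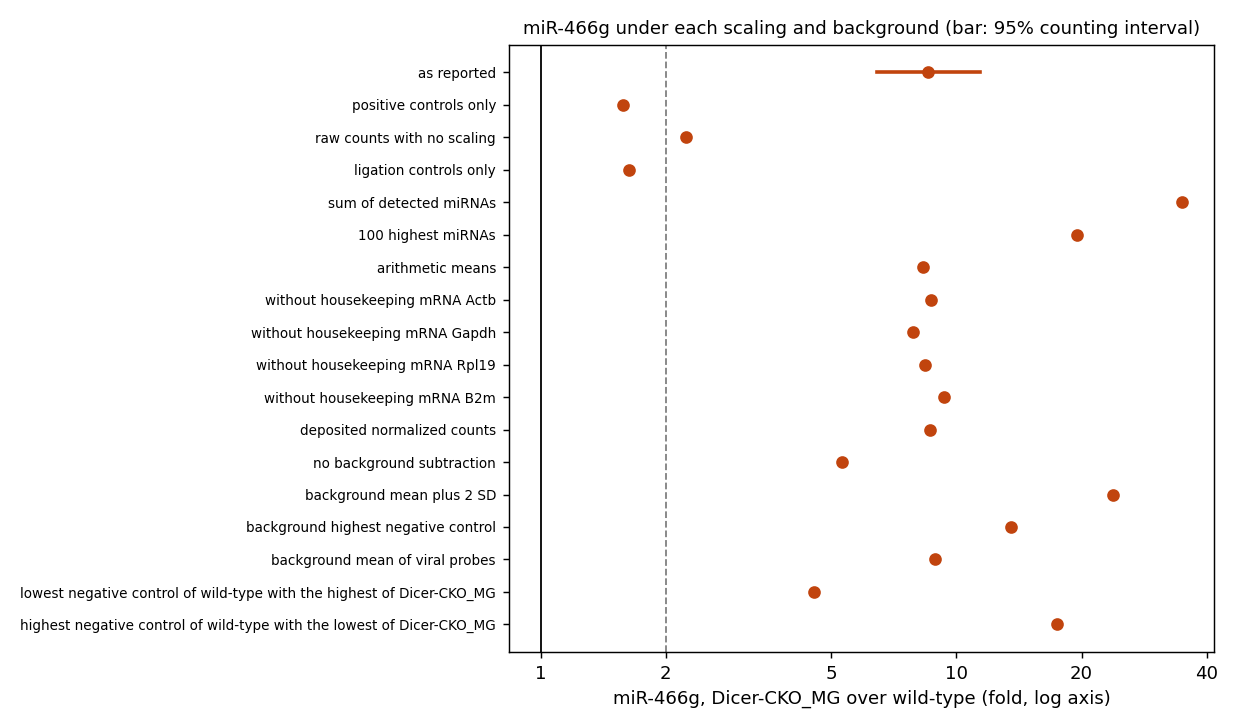
Fold of miR-466g, Dicer-CKO_MG over wild-type (log axis), as reported at the top with its 95% counting interval (bar), and under each other scaling and background subtraction below, with lines at equality (solid) and at 2-fold (dashed). All points lie right of equality, from 1.58 with positive controls only to 34.9 with the sum of detected miRNAs.

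The raw counts of the housekeeping mRNAs, which set the scale, were lower in Dicer-CKO_MG, with 1939 for Actb against 7024 in wild-type, 161 for Gapdh against 730, 179 for Rpl19 against 681 and 134 for B2m against 375. On this scale the listed miRNAs of other retinal cells had the higher sum in Dicer-CKO_MG (above), with 8140 against 1064 for the 3 of neurons, 3315 against 402 for the 3 of photoreceptors and 1325 against 297 for the 4 of immune cells. Scaled to the positive controls only, which for these lists was done after seeing the data, the sum over all 13 was 1.34-fold that of wild-type, with 1.41-fold for neurons, 1.52-fold for photoreceptors and 0.823-fold for immune cells, so that the direction of the immune list turned with the scale. The size of the miR-466g fold moved with the scale, from 1.58 to 34.9 (above). Whether these cells had a part in it was not tested.

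miR-669a, which is known to repress MyoD in mouse cardiac progenitors, had the highest raw count of the families in wild-type. Its raw count was 24 in Dicer-CKO_MG (interval 15.4 to 35.7), against 117 in wild-type (96.8 to 140.2). The joint probe for miR-466a-3p and miR-466b-3-3p gave 17 raw counts in Dicer-CKO_MG (9.90 to 27.2), against 114 in wild-type (94.0 to 137). These were the 2 members whose wild-type interval lay wholly above the limit, and both were at the level of the negative controls in Dicer-CKO_MG. Their normalized counts were 9.93 for miR-669a and -9.25 for the joint probe in Dicer-CKO_MG, against 56.1 and 54.0 in wild-type. A count of 90.0 was needed for detection in Dicer-CKO_MG, and 23.6 in wild-type, so their direction was open on this scale. An unchanged normalized level would have given raw counts of 40.9 for miR-669a and 40.1 for the joint probe in Dicer-CKO_MG, and the counts seen differed from these by -1.03 and -1.40 SD of the negative controls. On the scale of the positive controls an unchanged level would have given 131.5 and 127, and both were called lower there, 2 of 33 beside 137 of the 566 mouse probes.

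The other members detected in wild-type were miR-467f and miR-467a. miR-467f, with its gene outside Sfmbt2, gave 48 raw counts in Dicer-CKO_MG (35.4 to 63.6), against 84 in wild-type (67.0 to 104). miR-467a had 35 in Dicer-CKO_MG (24.4 to 48.7), against 72 in wild-type (56.3 to 90.7), where the limit is 71.7. Normalized, miR-467f stood at 75.7 in Dicer-CKO_MG, against 32.5 in wild-type, and miR-467a at 40.1 and 23.9. Both Dicer-CKO_MG counts were below the limit there and within 1 SD of the negative controls (0.960 and 0.359) of what an unchanged normalized level would give, so their direction was open too. On the scale of the positive controls the counts differed from an unchanged level by -2.23 SD for miR-467f and -1.99 SD for miR-467a, with log2 ratios of -0.97 and -0.53, neither of them called. All 5 members detected in wild-type had normalized counts below the Dicer-CKO_MG limit. A fall of any of them could not have been measured on the housekeeping scale, and the count of 0 members called lower has to be read with this.

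Close under the wild-type limit followed miR-669j with 71, miR-669f with 69, miR-467e with 68, the joint probe for miR-467h, miR-669d and miR-669l with 66, and miR-669o with 61. In Dicer-CKO_MG these had raw counts of 35, 27, 28, 20 and 14. Detection in wild-type thus hung on few counts, as the gap between miR-467a (72, detected) and miR-669j (71, not detected) shows. Above the highest negative control (62) lay 9 members in wild-type. The share of all mouse probes above it is not given here, so this shows only how the count moves with the limit. In Dicer-CKO_MG the members nearest under the limit were miR-467f with 48, then miR-467a and miR-669j with 35 each. The next was miR-297c with 30, which had 25 in wild-type.

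The 3 probes for miR-297 alone had raw counts of 6 to 30 in Dicer-CKO_MG, against 8 to 25 in wild-type, with none detected. The 12 probes for miR-466 ranged from 5 to 124 in Dicer-CKO_MG (median 11) and from 7 to 114 in wild-type (median 29.5). They included miR-466l, known to stabilize Il10 mRNA in mouse macrophages, with raw counts of 8 in Dicer-CKO_MG, against 49 in wild-type, and miR-466h, linked to apoptosis in hamster cells, with 12 and 13. The 7 probes for miR-467 ranged from 5 to 48 in Dicer-CKO_MG (median 18.0) and from 9 to 84 in wild-type (median 30.0). The 9 probes for miR-669 ranged from 10 to 35 in Dicer-CKO_MG (median 20) and from 2 to 117 in wild-type (median 49.0). Only the miR-669 median exceeded the wild-type negative controls (mean 38.6), and none of these 4 medians exceeded those of Dicer-CKO_MG (mean 20.4). Of the 6 probes named for the 5p arm none was detected, with 7 to 20 counts in Dicer-CKO_MG, against 2 to 30 in wild-type. Of the 3 named for the 3p arm 1 was detected, in wild-type. The other 24 gave no arm or mixed arms, so the arms cannot be compared. Members at or below the mean of the negative controls numbered 23 of 33 in Dicer-CKO_MG and 20 of 33 in wild-type. Above it in both libraries were 8 members. Of all 566 mouse probes, 324 had raw counts of 1 to 20 in Dicer-CKO_MG, so most of the panel was below that mean too. The median of all mouse probes was 18.0 in Dicer-CKO_MG, against 48.0 in wild-type. The panel's numbers at or below the wild-type mean, and above the mean in both, are not given here.

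Within the cluster, the probes differed in how many hairpins bear their name. miR-669a has 12 hairpin genes inside Sfmbt2 and miR-467a has 10. Both were detected in wild-type, with 117 and 72 counts, the second barely above the limit of 71.7, against 24 and 35 in Dicer-CKO_MG. The 6 cluster probes with 2 or more hairpin genes had a median raw count of 18.5 in Dicer-CKO_MG, against 50.5 in wild-type. Of these 6 probes 0 were detected in Dicer-CKO_MG and 3 in wild-type. Over all mouse probes the shares detected were 13.6% and 30.2%. Whether the number of hairpin genes bears on the count was not tested. The third of those detected, the joint probe for miR-466a-3p and miR-466b-3-3p, has 2 hairpin genes. Not detected were miR-466c-5p (3 genes, 29 counts in wild-type) and miR-669m (2 genes, 12 counts). The joint probe for miR-466a-5p and miR-466e-5p (2 genes, 26 counts in wild-type) was not detected either. The 19 with 1 hairpin gene had medians of 14.0 in Dicer-CKO_MG, against 31.0 in wild-type, and miR-466g was the 1 detected, in both libraries. Hairpins under another name that give the same mature sequence were not counted. The 5 probes with genes only outside Sfmbt2 had medians of 11 in Dicer-CKO_MG, against 28.0 in wild-type, and miR-467f was the 1 detected, in wild-type.

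**Figure D4:**
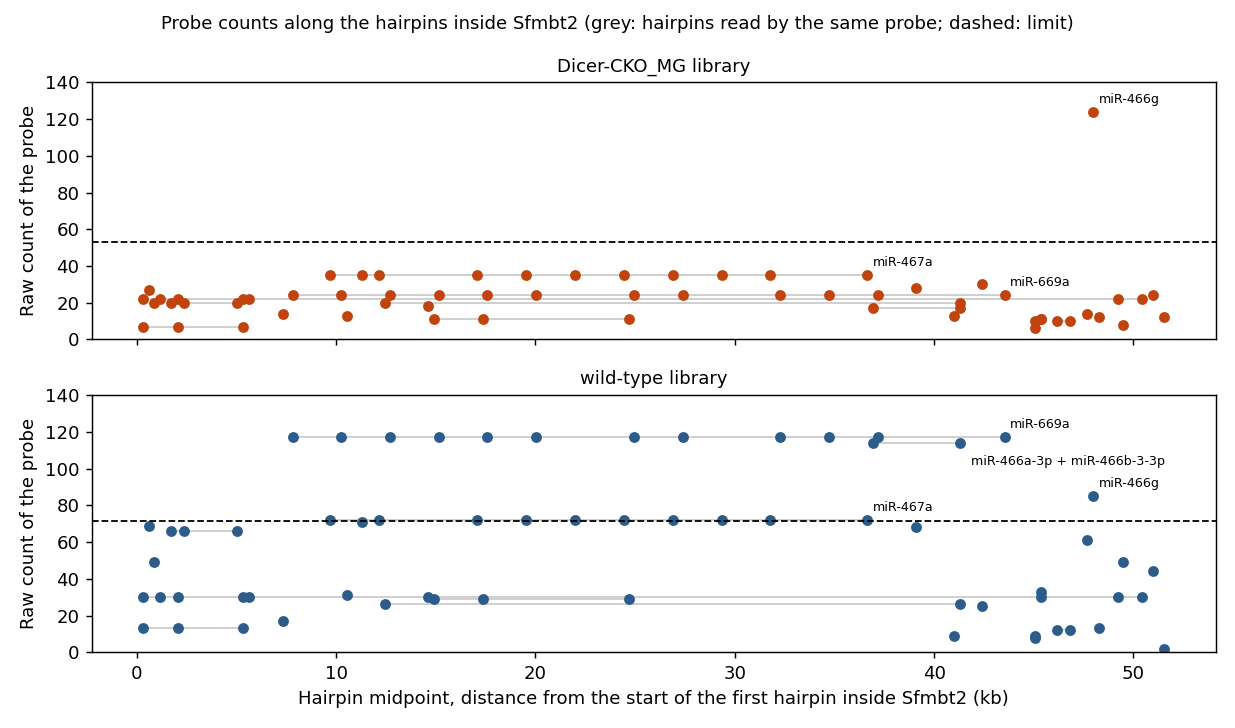
Raw count of each probe (barcodes) at the hairpins inside Sfmbt2 that bear its name, by the distance of the hairpin midpoint from the start of the first hairpin (kb), for the Dicer-CKO_MG library above and the wild-type library below. Grey lines join hairpins read by the same probe and dashed lines mark the detection limits of 53.2 and 71.7. The 12 hairpins of miR-669a and the 10 of miR-467a lie in the middle stretch, and miR-466g stands alone above the limit in Dicer-CKO_MG.

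The probed hairpins next to miR-466g were below the detection limit in both libraries. miR-669o, the nearest probed hairpin on one side, gave 14 raw counts in Dicer-CKO_MG, against 61 in wild-type, and miR-466h, the nearest on the other, had 12 and 13. Raw counts higher in Dicer-CKO_MG than in wild-type were found for 5 of the 33 members, against 48 of the 566 mouse probes. Besides miR-466g these were miR-297b-5p (10 against 8), miR-297c (30 against 25), miR-467d (13 against 9) and miR-669h-5p (12 against 2), all of them below the detection limit in both libraries.

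The deposited normalized counts of these families hold many fixed low values. There, 18 of the 33 members stand at 2 in Dicer-CKO_MG with 1 in wild-type, as do 228 of the 566 mouse probes (40.3%). None of these 18 had a raw count above 20 in Dicer-CKO_MG or above 37 in wild-type, so each was at or below the mean of the negative controls in both libraries. In that table every mouse probe with a raw count of 1 to 20 in Dicer-CKO_MG stands at 2, and those with 21 stand at 1, while every one with a raw count of 1 to 41 in wild-type stands at 1. The ratio of 2 between the 18 members therefore carries no measured difference. miR-466g stands at 250 in Dicer-CKO_MG, against 29 in wild-type there, miR-669a at 8 and 49, and the joint probe for miR-466a-3p and miR-466b-3-3p at 2 and 47.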

How the data were processed

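The members and lists were chosen with earlier results of these data known. The deposited files hold 1 list of raw counts (barcodes of each probe) per library, and the authors' normalized values, a score made with nSolver 2.6 from 4 housekeeping mRNAs, 8 negative and 6 positive controls and rounded to whole numbers. The order of its steps is not given in the sources used here. It served as an alternative. Raw counts were used for the main values, in Python 3.11.15 with SciPy 1.17.1. Probes were matched by accession, since 4 members are written differently in the files. From all counts, controls included, the negative controls' mean was subtracted, and the rest was scaled by geometric means of the positive controls and then of the housekeeping mRNAs. A probe at or below the limit in 1 library gave only a bound, set by that limit. Fold changes have the 95% Clopper-Pearson interval of the ratio of raw counts, and single counts the exact Poisson interval. Both cover counting error only and, near background, are too narrow. Depth was 139812 barcodes in Dicer-CKO_MG and 769736 in wild-type. Named were all detected members, those nearest the limits and, after their values were seen, miR-669o, miR-466h, miR-466l and members with the higher raw count in Dicer-CKO_MG. Sequences were not found by name for 4 of the 5 detected members, so 4 others are shown. Alternatives changed the scaling, background, limit and size of a call.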

Additional observations from a re-analysis of the deposited data

Results flagged for a closer look

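In data outside the comparison, 2 of the 33 viral miRNA probes rose above the detection limit of the wild-type library (71.7). The raw count of mcmv-miR-m59-2 was 22 in Dicer-CKO_MG, against 79 in wild-type. For mghv-miR-M1-7-5p the counts were 21 and 91. Both wild-type counts lie in the range of the members detected there, and the second exceeds miR-466g (85), miR-467f (84) and miR-467a (72).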

How the results depend on the processing

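No paired analysis was possible because each group is 1 library. miR-466g kept its direction under every scaling and background tried, though scaling and background were not changed together. It was called higher under all but scaling to positive controls only and to ligation controls only. There 0 members were called higher, against 2 of the 566 mouse probes under each of these scalings. The log2 ratio of miR-466g was 3.10, and 0.66 with positive controls only, 1.16 in raw counts, 0.71 with ligation controls, 5.13 with the sum of detected miRNAs, 4.29 with the 100 highest miRNAs, 2.41 without background subtraction, 4.58 with the mean plus 2 SD and 3.76 with the highest negative control as background. With opposite extremes of the negative controls, chosen after seeing the data, it was 2.18 and 4.13. With positive controls only, in raw counts and with ligation controls, 2 of the 33 members were called lower, in place of 0. They were miR-669a and the joint probe for miR-466a-3p and miR-466b-3-3p. Over all 566 mouse probes 137, 121 and 136 were called lower under these settings (24.2%, 21.4% and 24.0%), a larger share than among the members. The log2 ratio of the summed counts, -1.26, has no stable sign. It was -3.70 with positive controls only, -3.20 in raw counts, -3.65 with ligation controls, 0.77 with the sum of detected miRNAs and -0.073 with the 100 highest. With the viral probes as background it was 2.52. It had no value with the mean plus 2 SD or the highest negative control, where a sum was below 0. The deposited values gave 0.77, and counts without background subtraction 0.86. These 2 are not sums above background, since the first holds the fixed low values and the second the background itself. Detection in wild-type gave 9 members above the highest negative control and 2 above 100 counts, without miR-466g. Above the mean plus 2 SD of the viral probes 4 members were detected in Dicer-CKO_MG, against 2 in wild-type, again without miR-466g there. With that limit 2 of the 33 members were called higher (miR-466g and miR-467f), against 23 of the 566 mouse probes (4.06%). Shares of all mouse probes detected at these other limits are not given here, so the counts show only how detection moved with the limit. The raw detection limit was 53.2 in Dicer-CKO_MG, against 71.7 in wild-type, and with the housekeeping scaling it became 90.0, against 23.6, so falls of members at these levels could not be called on that scale.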
